A study of Mus musculus with 39 samples.

Results

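Rbm3 and Cirbp encode the cold-inducible RNA-binding proteins of the mouse, and each was a single row among the 47561 rows of the deposited table of mouse brain transcripts, so that 2 of 47561 rows are described. They were chosen by symbol, with their values against saline already known from an earlier look at these libraries. Their differences from saline are therefore given as a description, without a test. The libraries were made from mouse brain after a subcutaneous injection of soman, an organophosphate nerve agent that blocks acetylcholinesterase, or of saline. Soman doses were given in parts of the LD50, the dose lethal to 50% of animals: 1/10 as the lowest, 1/5 as the middle and 1/2 as the highest. Each dose was sampled after 1, 3, 7 and 14 days, which makes 12 soman groups of 3 libraries (36 libraries) beside 1 saline group of 3 libraries. No strain, sex, age, brain region or body temperature is given in the labels, and neither is the day of collection of the saline brains, the time of day of any collection, or whether a library came from 1 animal. With 1 saline group for 4 days, the treatment and the time of collection cannot be told apart in any difference from saline. The same holds for differences between days. The libraries are described as biological replicates, and p-values measure the spread between these libraries.

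RBM3 and CIRBP are small proteins with an RNA recognition motif at the front and a glycine-rich tail, and they bind messenger RNA and act on its splicing, stability and translation. Both transcripts are known to rise within hours of mild cooling and to fall on warming, through temperature-dependent splicing, polyadenylation and transcription. In the cooled or hibernating brain RBM3 is known for the upkeep of synapses, with the reticulon RTN3 as one of its targets, and CIRBP for effects on the amplitude of the circadian clock through the transcript of Clock.

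The brain libraries bore their label: the 5 neuronal markers summed to between 1113 and 1608 FPKM in the 39 libraries, and the 5 oligodendrocyte markers to between 1922 and 4101 FPKM. Liver markers summed to at most 1.66 FPKM, with Alb at 0 in 29 libraries and Fgb at 0 in 36. Values are FPKM, which divide a gene's fragments by its length and by the total of the library, and they summed to between 296322 and 342231 per library (median 312894). The read depth behind them is unknown, so no counting error is given. In the 1/10 LD50 group at day 7, replicates 2 and 3 had 20.8% and 24.7% of their summed FPKM in the 13 mitochondrial messenger RNAs, against a median of 8.98% over all libraries. A set of 7 libraries lay between the other 2 of their group for 47.6% to 76.5% of the genes over 2-fold apart in those 2. In the rest of the libraries the median was 17.1%. The 7 were replicate 3 in saline, in all 3 day 1 groups and in the day 14 groups of the lowest and middle dose, and that replicate 2 of day 7. Such genes numbered 519 for that replicate 2 and only 41 to 68 for the others of the 7. Whether the 7 are independent of the other libraries of their groups is not known, and p-values take them as independent. Where a result on the pair below changes its call or sign without these libraries, its value without them is given as well. In RNA of brain tissue, fewer cells that make a transcript and less of it per cell cannot be told apart.

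The coding sequences of the pair show which reads could be shared. The coding sequence of Rbm3 has 465 bases and that of Cirbp 519. Over 453 aligned bases 72.8% were identical, and no identical run was longer than 11 bases. The stretch of 120 aligned bases without a gap that held the most identical bases is printed, with the 32 differing bases in capitals. It covers bases 7 to 126 of both coding sequences (GENCODE vM21 transcripts, build GRCm38).
Rbm3: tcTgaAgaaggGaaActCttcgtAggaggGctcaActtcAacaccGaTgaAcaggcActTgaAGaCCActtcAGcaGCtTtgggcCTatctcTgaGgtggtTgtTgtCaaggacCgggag
Cirbp: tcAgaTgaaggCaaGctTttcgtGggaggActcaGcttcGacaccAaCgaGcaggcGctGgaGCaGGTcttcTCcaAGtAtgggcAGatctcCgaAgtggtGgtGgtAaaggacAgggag
Rbm3 also has a processed pseudogene, Rbm3-ps, a copy of its messenger RNA set back into the genome, which has a row of its own in the table. Rbm3 lies on chromosome X, Cirbp on chromosome 10 and Rbm3-ps on chromosome 1 of GRCm38. Rbm3-ps differs from the coding sequence of Rbm3 at 3 of 465 bases (99.4% identical), and all 3 lie in bases 197 to 316, shown with those bases in capitals.
Rbm3: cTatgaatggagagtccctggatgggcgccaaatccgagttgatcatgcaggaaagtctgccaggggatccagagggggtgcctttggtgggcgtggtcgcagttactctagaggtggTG
Rbm3-ps: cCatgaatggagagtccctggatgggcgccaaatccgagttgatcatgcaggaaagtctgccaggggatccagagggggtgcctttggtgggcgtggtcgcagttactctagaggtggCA
Outside this stretch the copy repeats the coding sequence of Rbm3 without a difference. The longest identical run is 197 bases, so a read from either could be counted for the other. How such reads were assigned is not given in the sources used here, and the level of Rbm3 is uncertain by that share.

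The first of the 2 Cirbp promoter entries of RefSeq (build GRCm38.p6, chr10:80167589-80167888, plus strand, from 250 bases before the start of transcription to 50 after it) is printed because a motif tied to the mild-cold response of Cirbp, TCCCCGCC, occurs in it once. The match is in capitals.
Cirbp promoter: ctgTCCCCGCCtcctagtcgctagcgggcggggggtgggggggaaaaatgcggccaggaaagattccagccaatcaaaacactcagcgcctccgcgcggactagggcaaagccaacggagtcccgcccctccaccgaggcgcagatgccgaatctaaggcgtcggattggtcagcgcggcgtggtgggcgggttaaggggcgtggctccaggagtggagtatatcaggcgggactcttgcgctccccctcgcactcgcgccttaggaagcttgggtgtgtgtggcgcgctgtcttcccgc
The match begins at base 4, which is 247 bases before the start, on the plus strand. Both strands were searched, and 5.38% of all 32851 promoters of the same length held this motif. The window also held 3 matches of the GC box GGGCGG (held by 35.7% of promoters) and 2 of CCAAT (37.4%), none overlapping another motif. It held no match of the heat shock element core GAANNTTC (7.86% of promoters), the E-box CACGTG (7.15%), the cAMP response element TGACGTCA (1.79%) or TATAAA (13.6%). The second Cirbp entry held 4 GC boxes and none of the other motifs. These are matches of letters and not measured sites.

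Rbm3 was higher than saline at every day, most at day 3, where its mean was about that of saline plus 1 log2 unit. In saline it stood at 17.7, 22.6 and 23.6 FPKM, a mean of 21.3 ± 3.13 (SD, n = 3). Over the 36 soman libraries it ranged from 17.3 to 48.4 FPKM with a median of 33.7, and 35 of the 36 lay above all 3 saline libraries. The exception was replicate 2 of 1/10 LD50 at day 14, which lay below all 3. For counts over all 36 libraries or over part of a day, here and below, the share of all tested genes was not counted.

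At day 1 Rbm3 stood at 32.6, 47.1 and 39.7 FPKM in the 1/10 LD50 libraries, at 28.2, 39.7 and 31.6 in those of 1/5 LD50 and at 36.9, 36.7 and 37.1 in those of 1/2 LD50. All 9 lay above saline, a separation that 0.877% of the 14701 tested genes showed at this day. The difference of the 9 from saline was 0.75 ± 0.12 (SE) on the log2(FPKM + 1) scale, from a mean of 36.6 ± 5.49 FPKM (SD, n = 9). By dose it was 0.87, 0.61 and 0.78 (SE 0.14 each) from the lowest to the highest, so the middle dose had the lowest mean.

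Day 3 held the highest values of Rbm3. It stood at 46.9, 41.9 and 48.4 FPKM at 1/10 LD50, at 42.8, 42.6 and 40.8 at 1/5 LD50 and at 33.8, 41.5 and 47.2 at 1/2 LD50. All 9 lay above saline, and 6.92% of tested genes also did at this day. The mean was 42.9 ± 4.40 FPKM (SD, n = 9) and the difference from saline 0.98 ± 0.12 (SE), made up of 1.08 at the lowest dose, 0.96 at the middle and 0.91 at the highest.

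By day 7 Rbm3 was nearer to saline while still above it in all 9 libraries, which 1.9% of tested genes were. It stood at 26.5, 26.9 and 24.0 FPKM at 1/10 LD50, at 28.8, 37.7 and 33.9 at 1/5 LD50 and at 29.5, 29.0 and 25.9 at 1/2 LD50. The lowest, 24.0 FPKM, was close to the highest saline library at 23.6. The difference from saline was 0.43 ± 0.12 (SE), and by dose 0.27, 0.63 and 0.39 (SE 0.14 each).

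At day 14 the doses stood furthest apart for Rbm3. The 1/10 LD50 libraries were at 27.1, 17.3 and 23.8 FPKM, across the range of saline. Those of 1/5 LD50 were at 33.6, 27.7 and 31.0 and those of 1/2 LD50 at 36.7, 30.2 and 31.2, each of the 6 above saline. Of the 9 libraries 8 were above all of saline. All 9 were above it for 1.36% of tested genes, a stricter count that Rbm3 did not meet. From lowest to highest dose the differences from saline were 0.08, 0.52 and 0.60 (SE 0.14 each), with 0.40 ± 0.12 for the 3 doses together. For 1/10 LD50 the sign rested on single libraries: the difference was -0.04 without saline replicate 1 and -0.06 without its own replicate 1.

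**Figure D1:**
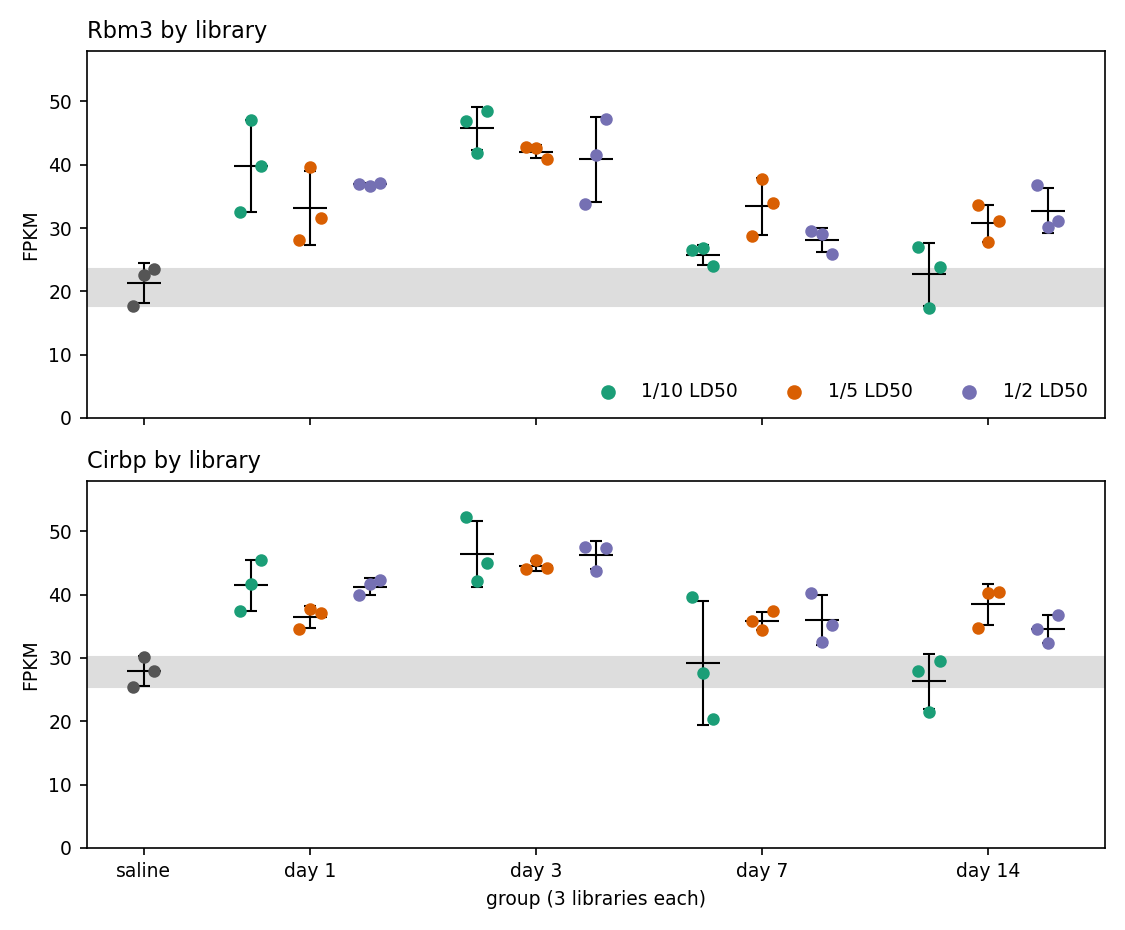
FPKM of Rbm3 (top) and Cirbp (bottom) in each library, by group along the x axis and coloured by dose. Points are libraries, black bars the mean and SD of 3 libraries, and the grey band the range of the saline libraries. Rbm3 lies above the band in 35 of 36 soman libraries and Cirbp in 31, and both are highest at day 3.

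Cirbp was higher than saline by a smaller step and in the same order of days. In saline it stood at 25.4, 30.2 and 28.0 FPKM (27.9 ± 2.37, SD, n = 3), somewhat above Rbm3 on this per-length scale. Over the 36 soman libraries it ranged from 20.3 to 52.2 FPKM (median 38.7). Of these 31 lay above all saline libraries and 2 below all of them.

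At day 1 Cirbp stood at 37.4, 41.7 and 45.4 FPKM at 1/10 LD50, at 34.5, 37.7 and 37.1 at 1/5 LD50 and at 39.9, 41.6 and 42.4 at 1/2 LD50. At day 3 it stood at 52.2, 42.2 and 44.9, at 44.1, 45.5 and 44.1, and at 47.6, 43.8 and 47.4 FPKM, in the same order of doses. All 9 libraries of either day lay above saline, as they did for 0.877% of tested genes at day 1 and 6.92% at day 3. The differences from saline were 0.50 ± 0.11 (SE) at day 1 and 0.70 ± 0.11 at day 3. At day 3 the 3 doses lay within 1 SE of each other, at 0.71, 0.66 and 0.71 (SE 0.14 each).

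At days 7 and 14 the lowest dose had the lowest mean of Cirbp. At day 7 it was at 39.7, 27.5 and 20.3 FPKM at 1/10 LD50, against 35.8, 34.5 and 37.4 at 1/5 LD50 and 40.2, 32.6 and 35.2 at 1/2 LD50. The 2 low values are those of the libraries with the high mitochondrial share. The difference of 1/10 LD50 from saline at day 7 was 0.02 ± 0.14 (SE) with all 3 libraries and 0.50 without those 2, while it was -0.22 without replicate 1, 0.24 without replicate 3 and -0.04 without saline replicate 1. Rbm3, by contrast, was at 26.5 FPKM in the remaining library and at 26.9 and 24.0 in those 2. Whether the mitochondrial share bears on the level of Cirbp was not tested.

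At day 14 Cirbp stood at 27.9, 21.4 and 29.6 FPKM at 1/10 LD50, none above all saline libraries. It was at 34.7, 40.2 and 40.4 at 1/5 LD50 and at 34.5, 32.4 and 36.8 at 1/2 LD50, all 6 above saline. The differences from saline by dose were -0.09, 0.45 and 0.30 (SE 0.14 each), the first turning to 0.05 without replicate 2 of its group. Over the 3 doses they were 0.24 ± 0.11 (SE) at day 7 and 0.22 ± 0.11 at day 14.

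**Figure D2:**
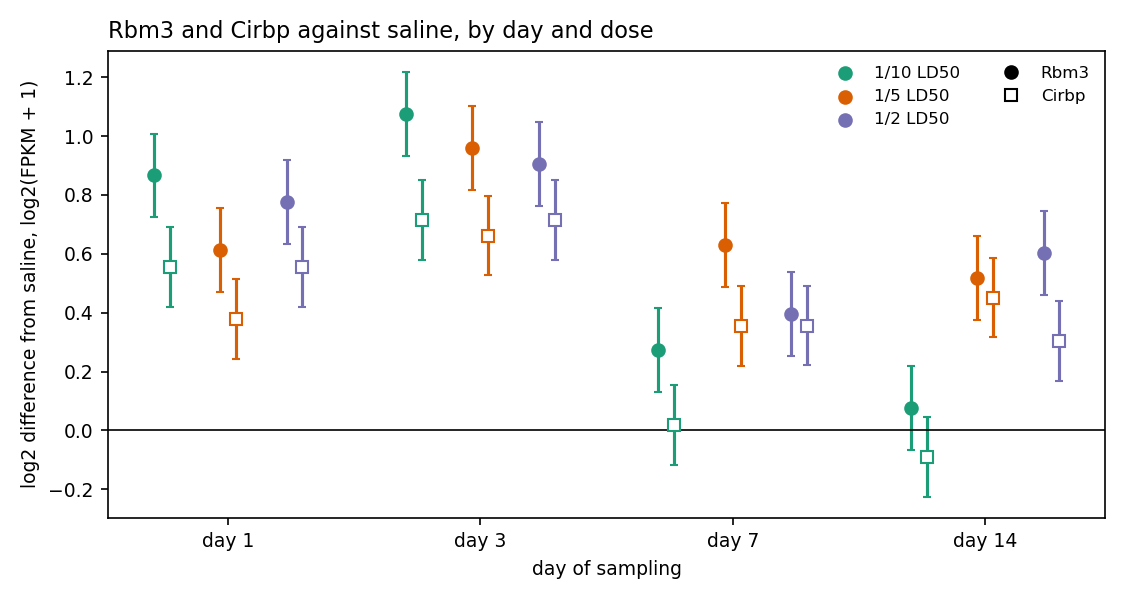
Difference from saline of Rbm3 (filled circles) and Cirbp (open squares) on the log2(FPKM + 1) scale for each of the 12 soman groups, with the day along the x axis, the dose by colour and the standard error as bars. Both are highest at day 3, and at days 7 and 14 the 1/10 LD50 group is the lowest of its day for both.

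Over all 36 soman libraries the differences from saline were 0.64 ± 0.10 (SE) for Rbm3 and 0.41 ± 0.10 for Cirbp. They were 0.64 and 0.45 without the 2 libraries of high mitochondrial share, and 0.71 and 0.40 without the 7 libraries that lie between others. Saline was the lowest of the 13 groups for Rbm3, and for Cirbp the second lowest after 1/10 LD50 at day 14. The group of 1/10 LD50 at day 3 was the highest for both, with means of 45.7 and 46.4 FPKM. Neighbours in the order of the 13 groups were not separated: the libraries of all 12 neighbouring pairs overlapped for either gene, and 8 gaps for Rbm3 and 9 for Cirbp were smaller than the pooled SD of the pair.

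The comparisons that leave out saline were tested with limma over all 14701 genes. The saline libraries have no weight in these differences, but they enter the model's estimate of spread and the filter on low values. Each is also the gap between differences from saline that were known when the genes were chosen. In the comparisons of days, an effect of soman over time and a difference between collections cannot be told apart, with 1 saline group for 4 days. From day 3 to day 7 both genes fell, Rbm3 by 0.55 ± 0.08 (SE) on the log2 scale (limma, adjusted p = 0.000138) and Cirbp by 0.45 ± 0.08 (adjusted p = 0.000667). Of all tested genes 6.06% passed in that comparison. Both calls stood in every alternative run. Without the 2 libraries of high mitochondrial share Cirbp fell by 0.29 (limma, adjusted p = 0.0107).

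Both were also lower at day 14 than at day 1, where 14.9% of tested genes passed. Rbm3 had a mean of 36.6 ± 5.49 FPKM at day 1 and 28.7 ± 5.70 at day 14 (SD over 9 libraries). Its log2 difference was -0.35 ± 0.08 (SE), which passed (limma, adjusted p = 0.0038). Cirbp fell from 39.7 ± 3.36 to 33.1 ± 6.11 FPKM, a difference of -0.27 ± 0.08 (limma, adjusted p = 0.0168). Without the 7 libraries that lie between others the difference of Cirbp was -0.28 and no longer passed (limma, adjusted p = 0.114), while that of Rbm3 was -0.38 (adjusted p = 0.0491).

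The step from day 1 to day 3 was less firm. Rbm3 was higher at day 3 by 0.23 ± 0.08 (SE; limma, adjusted p = 0.0424) and Cirbp by 0.20 ± 0.08 (limma, adjusted p = 0.0611), in a comparison that 23.5% of tested genes passed. The call of Rbm3 was lost when any of 13 libraries was left out: all of day 1 at 1/2 LD50, replicates 1 and 3 of day 1 at 1/10 and at 1/5 LD50, replicates 1 and 3 of day 3 at 1/10 LD50, replicates 1 and 2 at 1/5 LD50, and replicates 2 and 3 at 1/2 LD50. The adjusted p over all single libraries left out ran from 0.018 to 0.108. It was also lost without the 7 libraries that lie between others, where the step was 0.22 (limma, adjusted p = 0.155), with no filter on low values (0.23, adjusted p = 0.103), with median-ratio scaling (0.20, adjusted p = 0.071) and with the trend on transcript length removed (0.11, adjusted p = 0.442). The step of Cirbp, 0.20 in each case, passed when libraries of other days were left out of the fit, which changes only its error and the adjustment. It passed without the 2 libraries of high mitochondrial share (limma, adjusted p = 0.00694), without all of 1/10 LD50 at day 7 (0.00694), and with only the groups compared (0.00418). It also passed without replicate 1 or 3 of 1/10 LD50 at day 7, or replicate 2 of 1/10 LD50 at day 14 (limma, adjusted p = 0.0138, 0.0176 and 0.0477).

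From day 7 to day 14 neither gene passed. The differences were -0.03 ± 0.08 (SE) for Rbm3 (95% interval -0.20 to 0.14; limma, adjusted p = 0.796) and -0.02 ± 0.08 for Cirbp (-0.18 to 0.14; limma, adjusted p = 0.865), while 28.6% of tested genes passed. Without the 2 libraries of high mitochondrial share Cirbp was lower at day 14 by 0.18 and passed (limma, adjusted p = 0.0335). The sign of these small differences turned when single libraries were left out, among them replicate 2 of 1/10 LD50 at day 14 for both genes (0.02 each).

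Neither gene differed between the highest and the lowest dose over the 4 days by a margin that passed, as 0.0408% of tested genes did. For Rbm3 the difference of 1/2 from 1/10 LD50 was 0.10 ± 0.07 (SE; 95% interval -0.05 to 0.24; limma, adjusted p = 0.458). For Cirbp it was 0.18 ± 0.07 (0.04 to 0.32; limma, adjusted p = 0.146). Leaving out replicate 1 of 1/10 LD50 at day 7, the library of that group without a high mitochondrial share, brought Cirbp to 0.24 and past the threshold (limma, adjusted p = 0.0031), while leaving out the other 2 brought it to 0.06 (adjusted p = 0.852). Leaving out the whole group, an alternative chosen after the values were seen, gave -0.003 for Rbm3 and 0.09 for Cirbp.

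Within single days the difference between these doses did not pass for either gene. At day 1 the difference of 1/2 from 1/10 LD50 was -0.09 for Rbm3 and -0.002 for Cirbp (limma, adjusted p = 0.872 and 0.997), with 0.238% of tested genes past the threshold. At day 3 it was -0.17 and -0.0007 (limma, adjusted p = 1 for both after rounding), and 0 genes (0%) passed, while 778 were below 0.05 before adjustment. At day 7 it was 0.12 and 0.34 (SE 0.14 each; limma, adjusted p = 0.588 and 0.0787), and 17.7% of genes passed. Without the 2 libraries of high mitochondrial share the difference of Cirbp at day 7 turned to -0.14, and without replicate 1 of 1/10 LD50 it was 0.58 and passed (limma, adjusted p = 0.000336).

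At day 14 the difference between these doses was the largest of the 4 days for either gene with all libraries in. It was 0.53 ± 0.14 (SE) for Rbm3 (unadjusted p = 0.000893) and 0.39 ± 0.14 for Cirbp (unadjusted p = 0.00712). All 3 libraries of 1/2 LD50 lay above all 3 of 1/10 LD50 for either gene, a separation whose share over all tested genes was not counted. Neither passed over all genes (limma, adjusted p = 0.998 for both), and 0.0068% of tested genes did. The F-test for a dose pattern that differs between days did not pass either (limma, adjusted p = 0.093 for Rbm3 and 0.143 for Cirbp, 1.59% of genes passing). Without replicate 1 of 1/10 LD50 at day 7 it passed for both (limma, adjusted p = 0.0336 and 0.00188). That run leaves the group only its 2 libraries of high mitochondrial share. Without the 7 libraries that lie between others the F-test did not pass (limma, adjusted p = 0.637 for Rbm3 and 0.671 for Cirbp).

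Rbm3 and Cirbp moved together over the groups. Over the 13 group means their log2 values had a Pearson r of 0.95 and a Spearman rho of 0.92, a description over means that share the saline group, the libraries and any day effect. Both lay above all saline libraries in 31 of the 36 soman libraries, Rbm3 alone in 4, Cirbp alone in 0 and neither in 1. Within groups the link was looser: over the deviations of the 39 libraries from their group means r was 0.36. The ratio of Rbm3 to Cirbp was 0.763 ± 0.0733 in saline (SD, n = 3), and 0.92, 0.94, 0.887 and 0.872 at days 1, 3, 7 and 14. It lay above all saline ratios in 26 of 36 soman libraries and below all of them in 2.

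**Figure D3:**
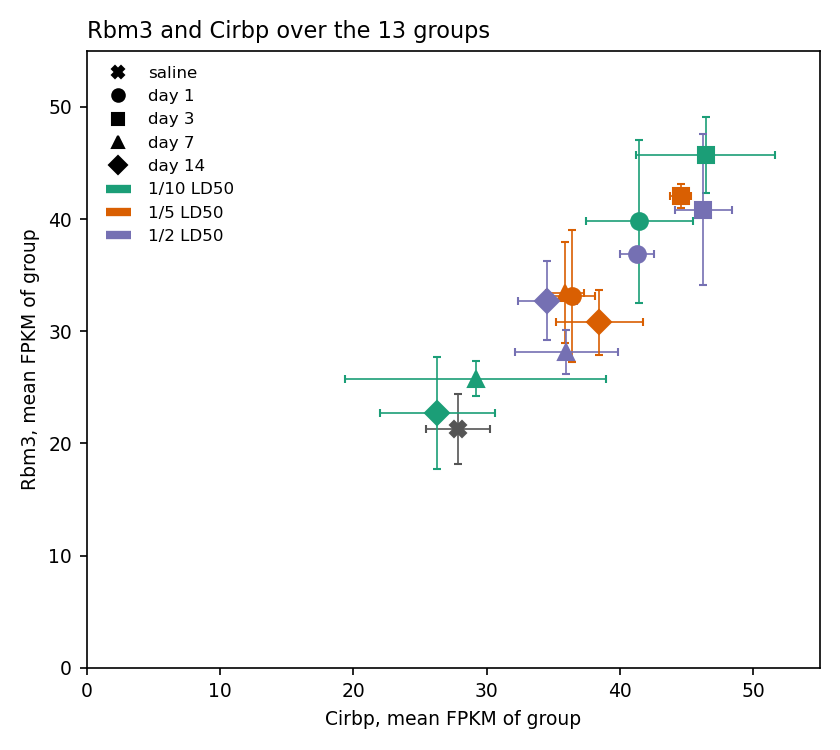
Mean FPKM of Rbm3 against that of Cirbp in the 13 groups, with the SD of 3 libraries as bars, the day by symbol and the dose by colour. Saline and 1/10 LD50 at day 14 lie lowest and the 3 groups of day 3 highest.

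Among 11132 genes with a mean of at least 2 FPKM and a symbol other than that of a predicted locus, Cirbp had the pattern over the 13 group means most like that of Rbm3. After it came Mri1 (r 0.88), an enzyme of the methionine salvage pathway, Sgcb (0.87), a sarcoglycan of the muscle membrane complex, Ccdc115 (0.87), an assembly factor of the vacuolar proton pump, Dhx32 (0.86), an RNA helicase-like protein, and Dnajc11 (0.86), a mitochondrial protein tied to the shape of the cristae. For Cirbp the order was Mri1 (0.95), Rbm3 (0.95), the zinc finger gene Zbtb22 (0.94), Ccdc115 (0.93), Dnajc11 (0.93) and Sgcb (0.92). These genes moved in smaller steps than the pair: Mri1 went from 2.16 FPKM in saline to 2.91 at day 3 and Dnajc11 from 18.9 to 21.3. Least like Rbm3 were Efcab14 (r -0.89), Tmem104 (-0.88) and Adcy8 (-0.86), a calcium-stimulated adenylyl cyclase. Least like Cirbp were Efcab14 (-0.89), the poly(A) polymerase gene Papola (-0.88) and the splicing regulator Mbnl1 (-0.87). The 13 points share the saline libraries and any difference between days.

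Rbm3-ps followed Rbm3 at a far lower level. Its mean was 0.94 ± 0.119 FPKM in saline (SD, n = 3) and 1.9 ± 0.563 in the 36 soman libraries, 35 of which lay above all of saline. Over the 13 group means its r with Rbm3 was 0.96 and its rho 0.98. Both were above those of Cirbp, but its level lay below the cut of 2 FPKM for the ranking above. With the row of Rbm3-ps added to that of Rbm3, the difference of all soman from saline was 0.65, and no call of Rbm3 was gained or lost.

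Genes tied to the pair or to the response to cooling were taken as a list of 38, of which 35 could be tested against saline by day with limma. This list, like the Rbm and heat shock lists below, was set with earlier results of these data known. The p-values and counts of the 3 lists are therefore a description and no independent support. Most of the 35 cold pathway genes did not pass at any day. At day 3, when the pair was highest, 2 rose (5.71%, against 6.46% of all tested genes) and 7 fell (20%, against 9.58%), with a median difference of -0.02 beside 0.02 for all genes. At day 7, 2 rose (5.71%, against 4.09%) and 9 fell (25.7%, against 10.5%), with a median of -0.03 beside -0.02. At day 1 none rose and 1 fell, against 0.0748% and 0.306% of all genes, while 2 and 4 were below 0.05 before adjustment. At day 14, 1 rose and none fell, against 0.156% and 0.748% (2 and 2 before adjustment).

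Among the genes tied most closely to the pair, Ntrk2 passed, while Rtn3, Hnrnph1 and Clk1 did not at any day. Rtn3, the reticulon downstream of RBM3 in synapse upkeep, was at 241 ± 21.7 FPKM in saline and 259 ± 15.9 at day 3 (limma, adjusted p = 0.242). Hnrnph1, the splicing factor that holds the poison exon of Rbm3 out of its transcript in the cold, was at 76.6 ± 7.46 FPKM in saline and 63.8 ± 8.06 at day 3, a difference of -0.27 ± 0.11 that did not pass (limma, adjusted p = 0.0939). Clk1, a kinase whose activity rises at lower temperature, had smaller differences, from -0.15 to 0.12 over the 4 days.

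Ntrk2 encodes TrkB, the BDNF receptor, through which RBM3 can be induced without cooling. It fell from 67.8 ± 2.79 FPKM in saline to 57.6 ± 4.26 at day 3, by 0.23 ± 0.05 on the log2 scale (limma, adjusted p = 0.00252), and was at 60.0 ± 4.62 at day 7 (limma, adjusted p = 0.0213). Creb1, a transcription factor downstream of that receptor, fell by 0.53 ± 0.09 at day 3, from 8.03 to 5.26 FPKM (limma, adjusted p = 0.000321). Bdnf itself rose by 0.28 ± 0.06 at day 14, from 3.34 to 4.25 FPKM, with 8 of 9 libraries above saline (limma, adjusted p = 0.0284). Leaving out replicate 1 or 2 of saline ended this call.

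Clock, a core gene of the circadian oscillator whose transcript CIRBP binds, fell by 0.39 ± 0.06 at day 3, from 11.7 ± 1.20 to 8.65 ± 0.495 FPKM (limma, adjusted p = 5.5e-05), and by 0.33 ± 0.06 at day 7 (adjusted p = 0.00041). All 9 libraries of day 3 lay below all of saline, a separation whose share over all tested genes was not counted. Per2, a clock gene that feeds back on that oscillator, was the gene of the list that fell at day 1, by 0.45 ± 0.10 (limma, adjusted p = 0.034). It also fell at day 3, by 0.56 ± 0.10 (adjusted p = 0.000352), and at day 7, by 0.35 ± 0.10 (adjusted p = 0.0179). Without any of 8 libraries, the 3 of saline among them, no gene of the list fell at day 1.

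Ppargc1a, a co-activator of heat production in brown fat, and Tnpo1, the importer that carries CIRBP into the nucleus, fell at day 7 by 0.35 ± 0.07 and 0.37 ± 0.08 (limma, adjusted p = 0.000729 and 0.00116). Srsf5, a splicing factor, rose at day 3 by 0.30 ± 0.05, from 99.7 to 123 FPKM (limma, adjusted p = 0.000346). Its 9 libraries all lay above saline, as in 6.92% of tested genes at this day. Leaving out saline replicate 1 or 3 lowered the number fallen at day 7 from 9 to 5 or 4. Without the 7 libraries that lie between others the number fallen was 4 at day 3 and 1 at day 7, and with the length trend removed it was 2 at day 7.

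The other Rbm genes, 43 by symbol and 35 tested, passed in small numbers. None passed at day 1 or at day 14, with 2 higher and 4 lower at day 1 and 0 and 2 at day 14 below 0.05 before adjustment. At day 3, 2 rose (5.71%, against 6.46% of all tested genes) and 3 fell (8.57%, against 9.58%), with a median of 0.04. At day 7, 1 rose (2.86%, against 4.09%) and 4 fell (11.4%, against 10.5%), with a median of -0.01. These shares were near those of all genes. Rbm11, a tissue-restricted splicing regulator, rose at day 3 by 0.37 ± 0.09, from 1.23 to 1.88 FPKM (limma, adjusted p = 0.00398), and Rbm22, a spliceosome component, rose at day 7 by 0.20 ± 0.06 (adjusted p = 0.0228). Rbm12 fell at day 3 by 0.37 ± 0.05 and at day 7 by 0.33 ± 0.05 (limma, adjusted p = 1.51e-05 and 5.56e-05). Rbm14, a paraspeckle protein, fell at day 3 by 0.32 ± 0.08 (limma, adjusted p = 0.00673), and Rbm19, a factor of ribosome assembly, at day 7 by 0.25 ± 0.07 (adjusted p = 0.0169). At most 0.37 in either direction, these steps were smaller than the 0.98 of Rbm3 and the 0.70 of Cirbp at day 3. The pair was chosen with those 2 values known, so this contrast is a description only. The number risen at day 3 was 1 without any of 18 libraries, and the number fallen at day 7 was 2 without any saline library, replicate 3 of 1/5 LD50 or replicate 1 of 1/2 LD50 at day 7. The number risen at day 7 was 0 without saline replicate 1 or 3, and 2 without replicate 1 or 3 of 1/10 LD50 or replicate 2 of 1/2 LD50 at day 7.

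Heat shock genes, the chaperones whose transcripts are known to rise on warming, fell in part at the 2 days when the pair was highest. Of 28 tested, none rose and 5 fell at day 1 (17.9%, against 0.306% of all tested genes), and none rose and 9 fell at day 3 (32.1%, against 9.58%), with medians of -0.23 and -0.12. Before adjustment 0 were higher and 20 lower below 0.05 at day 1, and 0 and 14 at day 3. Hsph1, a large chaperone of the HSP110 family, fell from 103 ± 4.18 FPKM in saline to 76.8 ± 6.45 at day 1 and 80.3 ± 5.94 at day 3 (limma, adjusted p = 0.000537 and 0.000316). Dnajb1, the co-chaperone that works with HSP70, fell by 0.43 ± 0.08 at either day (limma, adjusted p = 0.00894 and 0.000709). Stip1, which links HSP70 to HSP90, fell by 0.33 ± 0.06 at day 1 (limma, adjusted p = 0.00649), and Chordc1, an HSP90 partner, by 0.46 ± 0.08 at day 3 (adjusted p = 0.00029).

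At day 7, 1 heat shock gene of 28 rose (3.57%, against 4.09% of all tested genes) and 2 fell (7.14%, against 10.5%), with a median of -0.07. Hsph1 was still lower, by 0.19 ± 0.06 (limma, adjusted p = 0.0434), Hspa4, another HSP110 chaperone, fell by 0.18 ± 0.05 (adjusted p = 0.0105), and Cryab, a small heat shock protein abundant in oligodendrocytes, rose by 0.39 ± 0.12 (adjusted p = 0.0212). At day 14 none passed (6 higher and 0 lower before adjustment) and the median was 0.07. These counts moved with the saline libraries, as did those over all genes: of 14701, 11 rose and 45 fell at day 1 and 949 rose and 1409 fell at day 3, and without saline replicate 1, 2 or 3 the numbers of both directions together were 36, 21 and 17 at day 1 and 1280, 1477 and 1061 at day 3. Of the heat shock genes, without saline replicate 1, 2 or 3 the number fallen was 2, 1 and 1 at day 1 and 5, 5 and 4 at day 3, and without the 7 libraries that lie between others it was 0 and 3, with 3 and 656 of all genes passing. At day 7 the number fallen was 1, 1 and 0 without those saline libraries, and 4 without replicate 1 of 1/10 LD50 at day 7.

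**Figure D4:**
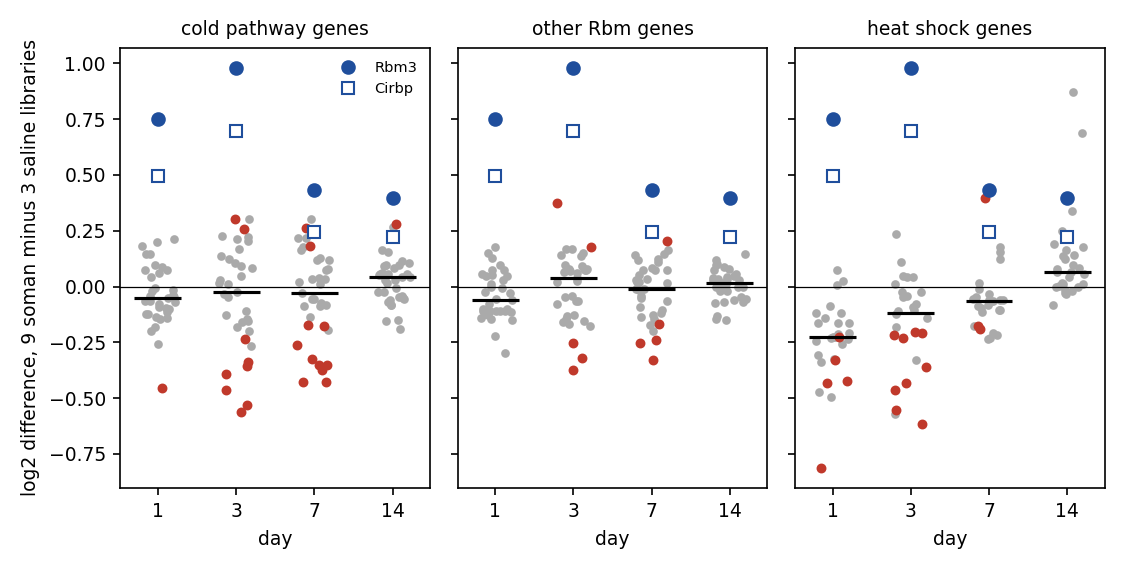
Difference from saline on the log2(FPKM + 1) scale, by day, for the tested genes of the cold pathway list, the other Rbm genes and the heat shock list. Each point is 1 gene (9 soman and 3 saline libraries), red where it passed limma's test, with the median of the list as a black bar and Rbm3 and Cirbp in blue. At day 3 the pair, which was chosen with its differences from saline known, lies at 0.98 and 0.70, above every gene of the 3 lists.

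Markers of other cell types moved beside the pair at some days. The 9 meningeal fibroblast markers summed to between 63.5 and 75.6 FPKM in saline, 54.3 and 75.0 at day 1, 41.2 and 57.7 at day 3, 30.6 and 50.3 at day 7 and 43.2 and 52.7 at day 14, and 7 of 9 fell at each of the last 3 days, when 9.58%, 10.5% and 0.748% of all tested genes fell. Of the 6 tested choroid plexus markers 2 fell at day 3 and 3 at day 7, with none of the 7 listed at 0. The 5 blood markers summed to between 795 and 926 FPKM in saline and 161 and 517 at day 14, where 4 of 5 fell. Of the 5 endothelial markers, summing to between 92.4 and 101 FPKM in saline and 99.0 and 128 at day 3, Slc2a1, a glucose transporter, rose at day 3 by 0.45 ± 0.10 (limma, adjusted p = 0.00291) and Pecam1, an adhesion protein, at day 7 by 0.22 ± 0.08 (adjusted p = 0.0436). Of the 5 microglial markers P2ry12, a purine receptor, rose at day 7 by 0.41 ± 0.13 (limma, adjusted p = 0.0353). Among all tested genes 6.46% rose at day 3 and 4.09% at day 7. Of the 5 neuronal markers Gad1, an enzyme of GABA synthesis, fell at day 3 by 0.31 ± 0.10 (limma, adjusted p = 0.032). None of the 5 astrocyte or 5 oligodendrocyte markers passed at any day. The oligodendrocyte markers nevertheless summed to between 1979 and 2428 FPKM at day 14, below the 2699 to 2845 of saline. Their median difference at that day was -0.31, and 4 of the 5 were lower before adjustment (limma, unadjusted p under 0.05). At day 1 no marker of these lists passed, a day when 0.0748% of all tested genes rose and 0.306% fell. The part of any of these cells in the levels of Rbm3 and Cirbp was not tested.

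Transcript length moved with the day as well. The median transcript of Rbm3 has 1204 bases and that of Cirbp 1321. The 1510 tested genes between 1000 and 1500 bases had a median difference from saline of 0.12 at day 3 and 0.06 at day 7, beside 0.02 and -0.02 for all genes. Once the length trend of every library was taken out, the differences at day 3 were 0.86 for Rbm3 and 0.59 for Cirbp, and at day 7 they were 0.36 and 0.18.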

How the data were processed

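Poly(dT)-selected brain RNA of 39 libraries was sequenced, per the labels' protocols. Per the submitters' processing notes the aligner was HISAT2, without a version, and the build GRCh38, which is human while the samples are mouse. Coordinates are therefore given only for the printed promoter. The deposited values are FPKM, made by the authors with a program that is not given in the sources used here. Rows were matched by symbol. Genes at FPKM 1 or more in at least 3 libraries (14701) were fitted as log2(FPKM + 1) with 1 mean for each of 13 groups, using limma 3.58.1 in R 4.3.3 with a mean-variance trend and Benjamini-Hochberg adjustment over all tested genes (threshold 0.05). Differences on this scale understate those of low genes. Lengths came from GENCODE vM21, for 95.9% of tested genes. Sequences were aligned with Biopython 1.88. Tables and figures were made in Python 3.11.15 (numpy 2.4.6, pandas 2.3.3, matplotlib 3.10.9). The model code was run on simulated data as a check.

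The 2 genes and the lists were chosen with earlier results of these data known. Named were the 3 members of smallest p past the threshold in each list and day, Hnrnph1, Rtn3, Ntrk2 and Clk1, and the 6 genes most like and 3 least like each of the pair. Some genes of the lists, kept in the counts, are not reported here by name. To find libraries that lie between the other 2 of a group, genes with a mean of at least 5 FPKM that differed over 2-fold in those 2 were taken, and the share of them at relative positions 0.3 to 0.7 had to exceed its value in every library outside the group. Other settings tried were a smaller pseudocount (0.1), testing all genes, scaling by median ratios, fitting only the groups of a comparison, a replicate block, a lowess correction for length (span 0.5), and libraries left out. After the values were seen, 2 more were added (Rbm3-ps added to Rbm3, and 1/10 LD50 at day 7 left out).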

Additional observations from a re-analysis of the deposited data

How the results depend on the processing

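The depth behind the FPKM is unknown, so counting error could not be given, and 3 libraries a group limit each mean. The 34 differences of the pair from saline had 1647 values under 49 other settings, and 5 of these, over 3 differences in the day 7 and day 14 groups of 1/10 LD50, had the other sign. No other setting lost the fall from day 3 to day 7. The cause of the changes below was not tested. Some of the settings test more genes or use fewer libraries. Neither symbol repeats, so summing rows had nothing to change.

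With each library left out in turn, the difference of all soman from saline ran from 0.52 to 0.72 for Rbm3 and from 0.35 to 0.47 for Cirbp, and day 14 minus day 1 from -0.40 to -0.29 and from -0.30 to -0.23. The difference of 1/2 from 1/10 LD50 over days ran from 0.05 to 0.13 for Rbm3 and from 0.13 to 0.24 for Cirbp, and the adjusted p of the dose by day interaction from 0.0336 to 0.167 and from 0.00188 to 0.234. The small dose differences of Cirbp turned sign at day 1 (-0.0737 to 0.0636, with 0.0029, 0.0636 and 0.022 on the other side) and at day 3 (-0.066 to 0.0851, with 0.0851 and 0.0377), that of Rbm3 at day 1 (-0.22 to 0.0367), and day 14 minus day 7 in both (-0.0778 to 0.0249 for Rbm3, and -0.097 to 0.0584 for Cirbp, with 0.0584, 0.0049, 0.0233 and 0.0016). With the length trend removed the dose difference of Rbm3 at day 7 was -0.0114, and day 14 minus day 7 was 0.0198 for Rbm3 and 0.0271 for Cirbp. Without the 2 libraries of high mitochondrial share the dose difference of Cirbp at day 7 was -0.14. Without the 7 libraries that lie between others that at day 1 was 0.0454, and day 14 minus day 1 of Cirbp was -0.28 and no longer passed. With 1/10 LD50 at day 7 left out the dose difference of Rbm3 over days was -0.0029.

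The list counts moved more. With single libraries left out the cold pathway numbers ran from 0 to 1 risen and 0 to 1 fallen at day 1, 2 to 4 risen at day 3, 1 to 3 risen and 4 to 11 fallen at day 7, and 0 to 1 risen at day 14. Those of the heat shock list ran from 1 to 7 fallen at day 1, 0 to 1 risen and 4 to 10 fallen at day 3, 0 to 2 risen and 0 to 4 fallen at day 7, and 0 to 1 risen at day 14. Those of the Rbm list ran from 0 to 1 fallen at day 1, 1 to 3 risen at day 3, and 0 to 2 risen and 2 to 5 fallen at day 7. Without the filter on low values, cold pathway counts were 0 fallen at day 1 and 1 risen at day 7, heat shock counts 0 risen and 1 fallen at day 7, and Rbm counts 1 risen at day 3 and 2 fallen at day 7. Median-ratio scaling gave 0 cold pathway genes fallen at day 1, 1 Rbm gene risen and 5 fallen at day 3 and 2 risen at day 7, and 2 heat shock genes risen and 1 fallen at day 7. With only the groups compared, cold pathway counts were 1 risen at day 1, 1 risen and 3 fallen at day 7 and 0 risen at day 14, Rbm counts 1 risen at day 3 and 0 risen and 1 fallen at day 7, and heat shock counts 0 and 0 at day 7. With the length trend removed, day 7 had 2 cold pathway and 2 Rbm genes fallen, and 0 heat shock genes risen or fallen. Without the 2 libraries of high mitochondrial share, 1, 5 and 2 Rbm genes fell at days 1, 3 and 7 and 1 heat shock gene fell at day 7. Without the 7 libraries, cold pathway counts were 0 fallen at day 1, 4 fallen at day 3, 0 risen and 1 fallen at day 7 and 0 risen at day 14, heat shock counts 0 and 3 fallen at days 1 and 3 and 0 and 0 at day 7, and Rbm counts 1 risen at day 3 and 0 risen and 1 fallen at day 7. With 1/10 LD50 at day 7 left out, Rbm counts were 1 and 5 fallen at days 1 and 3 and 2 risen at day 7, 4 cold pathway genes rose at day 7 and 1 heat shock gene fell.

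By the median, libraries with the same replicate number were no more alike than others: their deviations had a median r of 0.0054, against -8.3e-06 for other numbers. Of 234 pairs with the same number, 39 had deviations correlated above 0.1, a count not given for other pairs. It therefore cannot settle whether the numbers mark pairs. With the number as a replicate block, 1 heat shock gene fell at day 7, and no call of Rbm3 or Cirbp changed.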
